A study of Gallus gallus with 50 samples.

Results

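The genes described here are 7 enzymes of cholesterol synthesis, HMGCS1, FDPS, FDFT1, SQLE, LSS, CYP51A1 and DHCR7, and INSIG1, a sterol-responsive regulator of the pathway. They were taken by name: every probe set of the array whose only gene symbol in the platform annotation was one of these 8. This gave 14 probe sets of 38382 tested, for 8 of 13009 genes. HMGCS1, FDPS, FDFT1 and CYP51A1 had 1 probe set each, SQLE and DHCR7 had 2, and LSS and INSIG1 had 3. Each gene is represented by its probe set with the highest mean over the arrays (probe set 1), and the others are given beside it.

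On day 10 the mucosa was scraped from jejunum and ileum of 25 male Cobb 500 broilers, a fast-growing meat breed of chicken, and hybridised to 50 Affymetrix arrays, so each bird gave 1 array per segment. The control diet carried no supplement. The other 4 diets carried lysophosphatidylcholine (LPC, a phospholipid with a single fatty acid chain that acts as an emulsifier), and 5 birds were on each of the 5 diets. LPC low held 9.5 g per tonne of LPC, given as 500 g per tonne of purified LPC with its carrier, and LPC high held 19 g per tonne, given as 1000 g. Lysolecithin low held the same 9.5 g of LPC within 250 g per tonne of lysolecithin, the mixture from which LPC was purified, and lysolecithin high held 19 g within 500 g. All birds were housed in adjoining floor pens of 1 room. The labels do not say whether a diet filled more than 1 pen, so pen and diet cannot be told apart here. All values are log2 RMA signals, and a difference of 1 is a doubling on that scale. A scraping mixes cell types, so fewer cells of a type and less RNA per cell cannot be told apart.

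Cholesterol is built from acetyl-CoA through mevalonate, farnesyl diphosphate, squalene and lanosterol. In mammals, where the pathway is best known, the genes of its enzymes are switched on together by the SREBP transcription factors when membrane sterol is low. INSIG1 holds SREBP and its escort SCAP in the endoplasmic reticulum when sterol is plentiful, and is itself an SREBP target. The small intestine both makes cholesterol and takes it up from food and bile. The roles given below come from mammals.

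Before the results, 5 arrays stood apart. A segment score was formed as the mean of jejunum-high genes minus the mean of jejunum-low genes, 32 genes over all birds, none of them a member. By this score 2 arrays labelled jejunum and 2 labelled ileum lay nearer to the other segment, and the 2 arrays of 1 bird, of which the jejunum array is among those 4, did not match each other over 100 bird-specific probe sets, where 24 of 25 birds matched. These arrays, from 4 birds, are called in doubt, and results that rest on them are given with and without them unless said otherwise. The epithelial genes VIL1 (villin, of the brush border) and CDX2 (an intestinal transcription factor) were bright in both labelled tissues. They were at 12.07 and 11.47 in the jejunum and 12.18 and 11.52 in the ileum. Enterocyte markers that differed between the segments are given below with the other markers.

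INSIG1 gave the brightest signal of the 8, with a mean of 11.21 over the 50 arrays, above 98.9% of all probe set means. FDFT1 followed at 9.83, HMGCS1 at 9.72, LSS at 9.48, SQLE at 9.02, DHCR7 at 8.50 and FDPS at 8.10. CYP51A1 was the dimmest at 4.59, above 49.1% of probe set means, where differences are compressed. Probe sets differ in their response to RNA, so this order describes signals and not amounts of transcript. The second probe set of DHCR7 was at 2.55, above 3.08% of probe set means, and carries little information. Probe sets of 1 gene ran closely together over the jejunum arrays for SQLE (r = 0.99) and for LSS sets 1 and 2 (r = 0.98), and less so for the DHCR7 pair (r = 0.19).

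**Figure D1:**
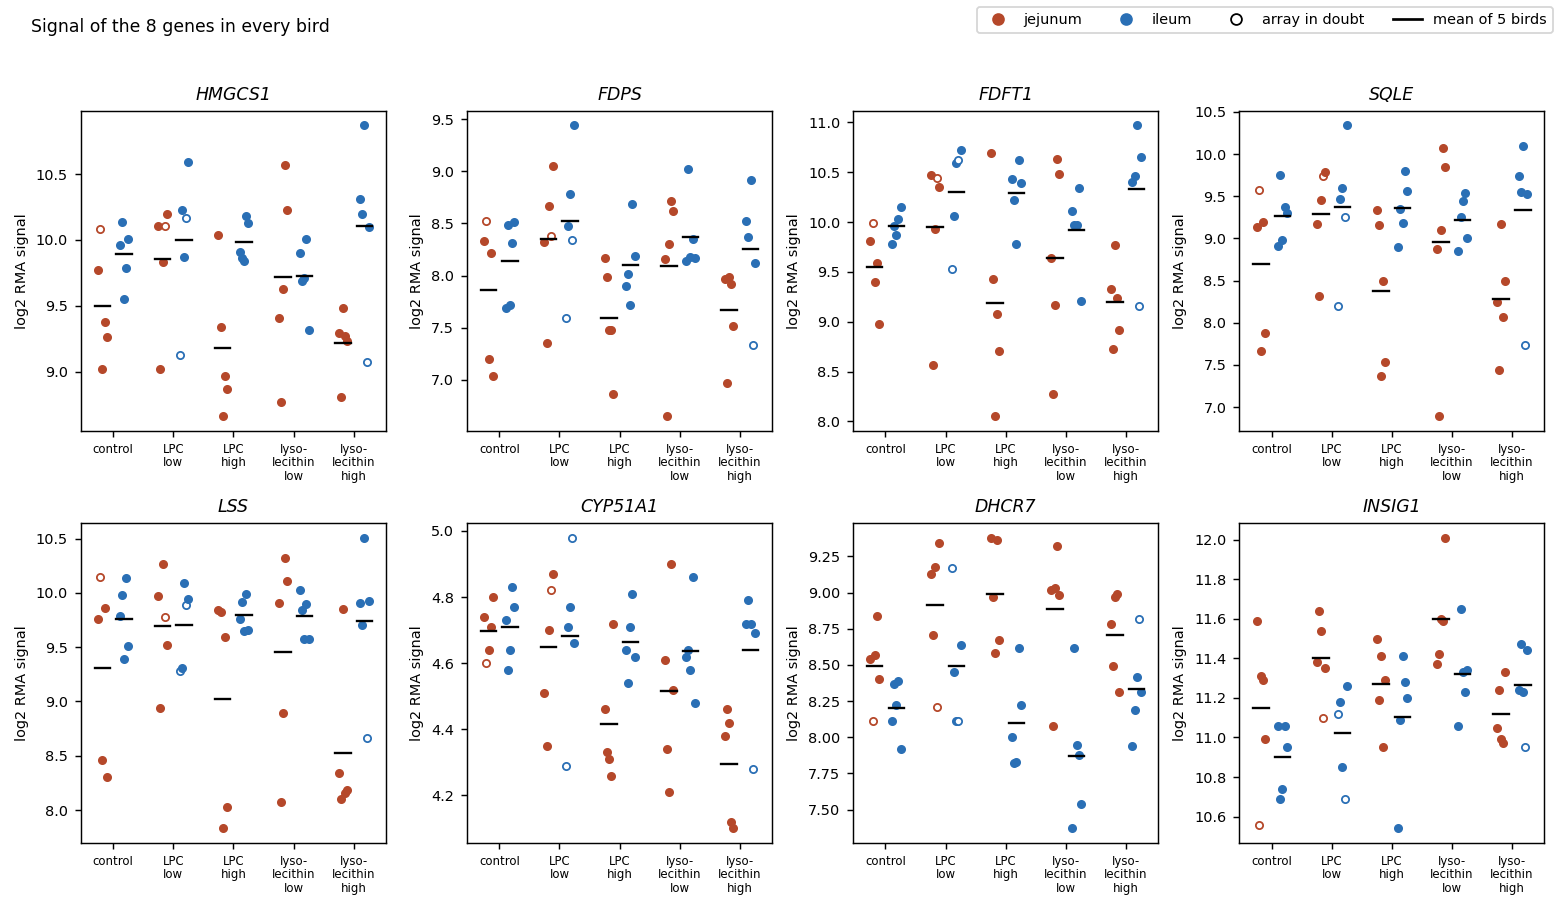
Log2 RMA signal of the 8 genes (vertical axis of each panel) in every bird, by diet (horizontal axis) and segment. Points are birds, open points are arrays in doubt and bars are means of 5 birds. The enzymes from HMGCS1 to LSS spread over a wider range in the jejunum than in the ileum.

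Ordered by mean level over the 10 groups of segment and diet, the jejunum groups sat at the low end for most enzymes. Of the 5 lowest groups, 4 were jejunum groups for HMGCS1, FDPS, FDFT1 and SQLE, and 5 for LSS. For DHCR7 only 1 of the 5 lowest was a jejunum group. The lowest mean for HMGCS1 was 9.18 ± 0.54 in jejunum LPC high and the highest was 10.11 ± 0.65 in ileum lysolecithin high (SD, n = 5). For SQLE the order ran from 8.28 ± 0.63 in jejunum lysolecithin high to 9.37 ± 0.77 in ileum LPC low. For INSIG1 it ran from 10.90 ± 0.18 in ileum control to 11.60 ± 0.25 in jejunum lysolecithin low. In all 8 genes, all 9 pairs of neighbouring groups overlapped in their ranges over birds, so neighbours in the order could not be separated.

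The comparison of segments asked how jejunum and ileum differ within the same bird. Most of the enzymes were lower in the jejunum. HMGCS1, FDFT1, SQLE, LSS and CYP51A1 were lower, and DHCR7 and INSIG1 were higher. Of the 14 probe sets 10 passed the threshold (limma with the bird as a block, Benjamini-Hochberg adjusted over all probe sets), 7 lower and 3 higher. Over all probe sets 19.7% passed, 9.92% higher and 9.8% lower in the jejunum. The median difference of the 8 genes was -0.41, beside -0.01 over all probe sets.

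HMGCS1, which makes HMG-CoA at the entry to the pathway, ranged from 8.66 to 10.57 in the jejunum with a median of 9.38, and from 9.07 to 10.87 in the ileum with a median of 9.96. The ranges overlapped widely, but 20 of 25 birds were lower in the jejunum. The difference was -0.45 ± 0.13 (SE, n = 25 birds), 1.36-fold lower, with an adjusted p of 0.0144 in limma. FDPS, which makes farnesyl diphosphate, ranged from 6.65 to 9.05 in the jejunum (median 7.99) and from 7.33 to 9.44 in the ileum (median 8.31). Its difference of -0.36 ± 0.15 did not pass (limma adjusted p = 0.0839), and 15 of 25 birds were lower in the jejunum.

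FDFT1, squalene synthase, commits farnesyl diphosphate to sterols. It ranged from 8.05 to 10.69 in the jejunum (median 9.43) and from 9.16 to 10.97 in the ileum (median 10.15). Its difference of -0.65 ± 0.16 was the largest decrease among the genes' representing probe sets, 1.57-fold, with a limma adjusted p of 0.00463 and 18 of 25 birds lower in the jejunum.

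SQLE, squalene epoxidase, a rate-controlling step, ranged from 6.89 to 10.07 in the jejunum (median 9.10) and from 7.74 to 10.34 in the ileum (median 9.37). It was lower in the jejunum, at -0.59 ± 0.18 (limma adjusted p = 0.0236), and its second probe set gave -0.64 ± 0.20. LSS, which closes the ring system to lanosterol, ranged from 7.83 to 10.32 in the jejunum (median 9.59) and from 8.66 to 10.51 in the ileum (median 9.84). It was lower, at -0.56 ± 0.15 (limma adjusted p = 0.0076), and at -0.60 ± 0.17 at probe set 2. Its dimmer probe set 3 gave -0.19 ± 0.10 and did not pass (limma adjusted p = 0.198).

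CYP51A1, which demethylates lanosterol, was lower in the jejunum, at -0.15 ± 0.04 (limma adjusted p = 0.0165), a small difference at a dim signal. It ranged from 4.10 to 4.90 in the jejunum (median 4.51) and from 4.28 to 4.98 in the ileum (median 4.69).

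DHCR7, the reductase of the final step, went the other way. It ranged from 8.08 to 9.38 in the jejunum (median 8.84) and from 7.37 to 9.17 in the ileum (median 8.19), and 21 of 25 birds were higher in the jejunum. The difference was 0.60 ± 0.11, 1.51-fold higher, with a limma adjusted p of 0.00019, the smallest of the 14. The dim second probe set gave -0.02 ± 0.03.

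INSIG1 ranged from 10.56 to 12.01 in the jejunum (median 11.33) and from 10.54 to 11.65 in the ileum (median 11.18). It was higher in the jejunum by 0.18 ± 0.07, just inside the threshold (limma adjusted p = 0.0491). This call was lost on leaving out any of 18 of the 25 birds (limma adjusted p = 0.0503 to 0.0873) and also with no replicate block. Probe set 3 was higher by 0.34 ± 0.09 (limma adjusted p = 0.0116), while the second, at 0.24 ± 0.11, did not pass (limma adjusted p = 0.125). The sign was the same at all 3 probe sets, and the call was not.

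Most of the genes gave larger differences once the 4 birds in doubt were left out. FDPS then passed, at -0.50 ± 0.16 (limma adjusted p = 0.0213, n = 21 birds), and probe set 1 of INSIG1 no longer did, at 0.19 ± 0.08 (limma adjusted p = 0.0675). FDFT1 was at -0.82 ± 0.17, SQLE at -0.77 ± 0.19, HMGCS1 at -0.58 ± 0.13 and DHCR7 at 0.71 ± 0.11. Of the 14 probe sets 10 passed, 8 lower and 2 higher, with 23.6% of all probe sets past the threshold in those birds. Over all birds this share was 19.7%. Each of the 4 birds left out had an array marked by the segment score, which was formed from segment differences in these same data. Leaving out these birds favours larger segment differences by construction, so the larger values and the new call are not separate evidence.

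**Figure D2:**
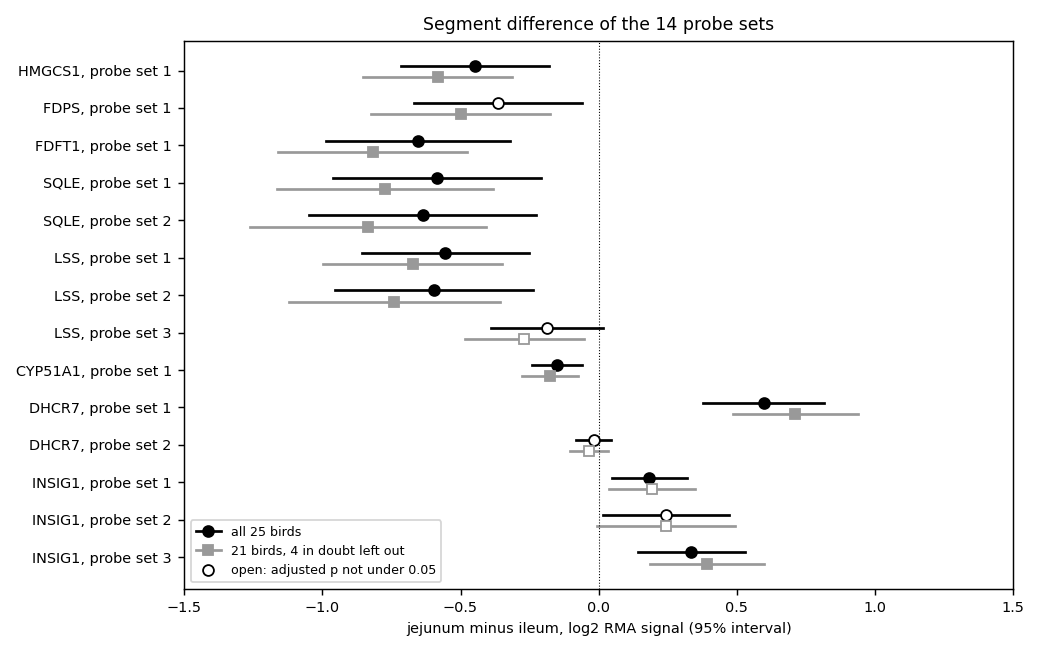
Jejunum minus ileum difference in log2 RMA signal (horizontal axis, with its 95% interval) for the 14 probe sets (vertical axis), in all 25 birds (black) and in 21 birds (grey). Filled symbols passed the threshold. The enzymes from HMGCS1 to CYP51A1 lie below 0, and probe set 1 of DHCR7 and the probe sets of INSIG1 lie above it.

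The difference was not of equal size on every diet, although no such inequality passed its test. The means by diet below keep the birds in doubt, and means without them are not given. Those birds are control replicate 2, LPC low replicates 1 and 4, and lysolecithin high replicate 4. For LSS the mean paired difference was -1.22 ± 0.59 on lysolecithin high, where 5 of 5 birds were lower in the jejunum, and -0.01 ± 0.46 on LPC low (SD, n = 5). For DHCR7 it was 1.01 ± 0.89 on lysolecithin low and 0.29 ± 0.31 on control. For probe set 1 of INSIG1 the sign itself differed. The mean was -0.15 ± 0.11 on lysolecithin high, where 4 of 5 birds were lower in the jejunum, and between 0.16 and 0.38 on the other diets. On lysolecithin high probe set 2 was also lower in the jejunum, with means of 9.16 and 9.31 in the ileum. Probe set 3 was higher there, with 7.73 in the jejunum and 7.58 in the ileum. The test of diet on the jejunum minus ileum difference called 0 of the 14 probe sets with limma, and 0.00521% of all probe sets passed it; at an unadjusted p under 0.05 there were 0 of the 14, beside 10.3% of all probe sets. Of the 56 single diet tests on this difference 0 passed, beside 0% of all probe sets, and 2 had an unadjusted p under 0.05, beside 7.32%.

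Other genes of the pathway were read from lists chosen with earlier results of these data known. Of 10 other sterol enzymes measured, 0 rose and 1 fell in the jejunum: NSDHL, a sterol dehydrogenase of the demethylation steps, at -0.60 ± 0.15 (limma adjusted p = 0.00354). Their median difference was -0.09. Without the birds in doubt 3 fell, NSDHL with ACAT2, a thiolase at the entry to the pathway, at -0.43 ± 0.14 (limma adjusted p = 0.0244) and MSMO1 at -0.40 ± 0.13 (limma adjusted p = 0.0217). Among 9 genes of SREBP control, INSIG1 included, 3 were higher and 3 lower. INSIG2, a second anchor of the SREBP escort, was higher by 0.61 ± 0.09 (limma adjusted p = 1.27e-05), and SREBF2, the SREBP gene most tied to cholesterol synthesis, was lower, at -0.28 ± 0.08 (limma adjusted p = 0.00918). SREBF1 at 0.05 ± 0.05 and SCAP at -0.01 ± 0.04 did not pass. Of 10 genes of sterol export and storage 6 were higher and 0 lower. They include the lipoprotein receptor SCARB1 at 3.58 ± 0.37, the sterol exporters ABCG8 at 0.66 ± 0.11 and ABCA1 at 0.34 ± 0.06, and the oxysterol receptor NR1H3 at 0.21 ± 0.04. Without the birds in doubt 1 of these 10 was lower, NPC1, a lysosomal cholesterol transporter, at -0.36 ± 0.11 (limma adjusted p = 0.0151), and 6 were higher; ACAT2, MSMO1 and NPC1 are named here after their values were seen. Of 12 genes of fatty acid synthesis 2 were higher and 3 lower, and 4 were lower without those birds. In the same birds 2 genes of SREBP control were higher and 3 lower. The counts and calls given here without the birds in doubt, those of ACAT2, MSMO1 and NPC1 included, carry the same limit. The choice of birds favours larger segment differences.

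Markers of cell types also differed between the segments. Of 7 enterocyte markers 2 were higher in the jejunum, APOA4 at 1.62 ± 0.16 and APOA1 at 0.48 ± 0.06. Another 2 were lower, among them VIL1 at -0.12 ± 0.03 (limma adjusted p = 0.0177). Of 5 smooth muscle markers measured 4 were higher in the jejunum, and their mean level ranged from 4.92 to 7.97 there and from 4.63 to 7.31 in the ileum. Of 5 fibroblast markers 2 were higher, over ranges of 5.31 to 9.22 and 4.83 to 8.45. Without the birds in doubt 3 smooth muscle and 2 fibroblast markers were higher. Of 2 goblet cell markers 2 were lower, and MUC2, the secreted gel mucin, was at -0.61 ± 0.19. Of 6 markers of crypt proliferation 0 passed in either direction. None of these markers was listed at 0, as RMA signals start above it. The part of these cell types in the members' differences was not tested.

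Birds differed from one another more in the jejunum than in the ileum for most of these enzymes. After diet and batch were subtracted, the SD over birds of LSS was 0.85 in the jejunum and 0.40 in the ileum, a ratio of 2.11. The ratio was 1.63 for FDFT1, 1.54 for SQLE, 1.27 for FDPS, 1.22 for CYP51A1 and 1.17 for HMGCS1. It was 1.03 for DHCR7 and 1.04 for INSIG1, beside a median of 0.99 over all probe sets. At probe sets 2 and 3 it was 2.06 and 1.20 for LSS and 0.85 and 1.14 for INSIG1. At probe set 2 it was 1.54 for SQLE and 1.37 for DHCR7. Without the arrays in doubt the ratios were 3.00 for LSS, 2.77 for SQLE, 2.43 for FDFT1, 2.16 for CYP51A1, 1.87 for HMGCS1 and 1.76 for FDPS, beside a median of 1.01. They were 1.06 for DHCR7 and 0.95 for INSIG1. Probe sets 2 and 3 of LSS then had ratios of 2.99 and 1.60. Of the ileum arrays left out, 2 were marked for lying nearer to the jejunum. For genes lower in the jejunum, leaving these out favours a smaller spread in the ileum by construction. The larger ratios are therefore not separate evidence. These ratios are descriptions with no test.

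The 5 enzymes from HMGCS1 to LSS varied together over birds. Without the arrays in doubt, their 10 pairwise correlations had a median of 0.86 in the jejunum (0.76 to 0.95, n = 23) and 0.57 in the ileum (0.46 to 0.79, n = 22), and with all arrays the ileum median was 0.79. DHCR7 followed them in the jejunum with a median of 0.80, which was 0.58 with all arrays, and less in the ileum with 0.36, which was -0.21 with all arrays. CYP51A1 had medians of 0.32 in the jejunum and 0.31 in the ileum, and 0.30 and 0.67 with all arrays. INSIG1 had medians of 0.21 and 0.02 with the same 5 enzymes, and 0.04 and 0.14 with all arrays. Points that enter 1 correlation share the array and its normalisation. For most genes the level in a bird's jejunum told little of the level in the same bird's ileum. Over 21 birds r was 0.47 for LSS and lay between -0.13 and 0.28 for the other genes. Over all 25 birds r was 0.43 for LSS, 0.42 for CYP51A1 and 0.29 for INSIG1. It lay between -0.05 and 0.14 for the rest.

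**Figure D3:**
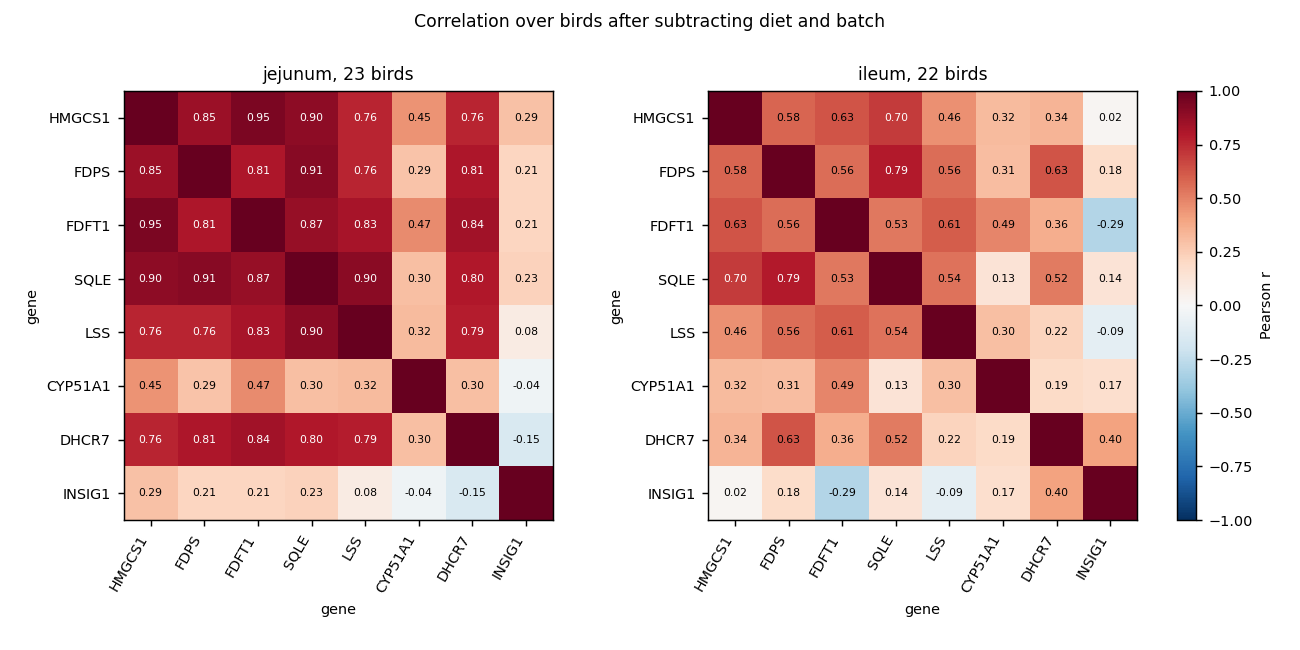
Pearson correlation over birds between the signals of the 8 genes (both axes) after diet and batch were subtracted, in the jejunum (23 birds) and the ileum (22 birds), arrays in doubt left out. The block from HMGCS1 to LSS is dark red in the jejunum and lighter in the ileum, and INSIG1 stands outside it in both.

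The jejunum arrays were cut into a pair of groups, called clusters here, at the widest gap in their segment scores. Any scores cut this way give a pair. Of the 23 arrays not in doubt, 13 had scores from -1.40 to 2.96 and 10 had scores from 4.21 to 5.41, with nothing between. The gap was 1.25 and the next widest 0.89, so the split is not sharp. Over all 23 arrays r with the score ran from -0.37 for INSIG1 to -0.83 for LSS. HMGCS1, FDPS, FDFT1, SQLE (r = -0.72) and LSS passed there (two-sided permutation test, adjusted over 32 relations, p = 0.00064 for LSS). CYP51A1, DHCR7 and INSIG1 did not. Within diet and batch, r for the 5 enzymes that passed ran from -0.58 for HMGCS1 to -0.81 for LSS, given as a description. The score was formed from segment differences in these same data, which can favour negative r for genes lower in the jejunum. These relations are therefore not separate evidence. DHCR7 and INSIG1, which were higher in the jejunum, also had negative r there, -0.47 and -0.37. In the ileum r of the same 5 enzymes with the score ran from -0.01 to 0.46. The cause of these signs was not tested. In the jejunum 3.86% of all probe sets had r below -0.5. Such correlations mix the difference between clusters with relations inside them, so relations were also taken within each. Within the clusters 0 of 16 relations between a member and the score passed (two-sided permutation test, Benjamini-Hochberg adjusted over 40 relations, smallest adjusted p = 0.611). The cut on the score itself left a narrower range of scores in each cluster, which shrinks r. With that and 13 and 10 arrays, sizeable relations could go unseen there. For SQLE r was -0.22 (rho -0.16) over the 13 arrays and 0.33 (rho 0.28) over the 10, and the latter was -0.42 without the 2 arrays farthest from the median score. An index of RNA integrity was the 5' minus 3' signal averaged over the control probe sets of actin, GAPDH and EF1A. The remaining 24 relations, with the score in the ileum and with this index in both segments, gave 0 that passed over the 40. The nearest was INSIG1 with the score in the ileum, r = 0.55 and rho = 0.52 over 22 arrays (adjusted p = 0.304). Without the 2 farthest arrays its r was 0.37. Adjusted over the first 32 relations instead, INSIG1 in the ileum passed on r (two-sided permutation test, adjusted p = 0.0405). On rho it did not (adjusted p = 0.0746). This call thus depends on the set of relations. Correlations between genes within the clusters were taken with diet and batch not subtracted, unlike those above, as the birds were too few. The correlation of the 5 enzymes with one another was also seen within the clusters. Its median over the same 10 pairs was 0.83 over the 13 arrays and 0.75 over the 10. The other genes differed from the 5 enzymes in this. CYP51A1 had a median of 0.67 with the 5 enzymes over the 13 arrays and of -0.26 over the 10, DHCR7 had 0.36 and 0.57, and INSIG1 had 0.39 and 0.02. The median correlation of the members with the goblet cell markers was 0.63 over all 23 arrays, and 0.14 and 0.05 within the clusters. With the T cell markers it was -0.45 over all 23 arrays, and -0.37 and -0.32 within the clusters. These classes are named because their jejunum medians were the highest and the lowest of the marker classes. The other classes lay between -0.03 and 0.30 over the 23 arrays. In the ileum the median was -0.33 for the goblet cell markers and -0.02 for the T cell markers, over 22 arrays. The part of these cell types in the members' values was not tested.

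**Figure D4:**
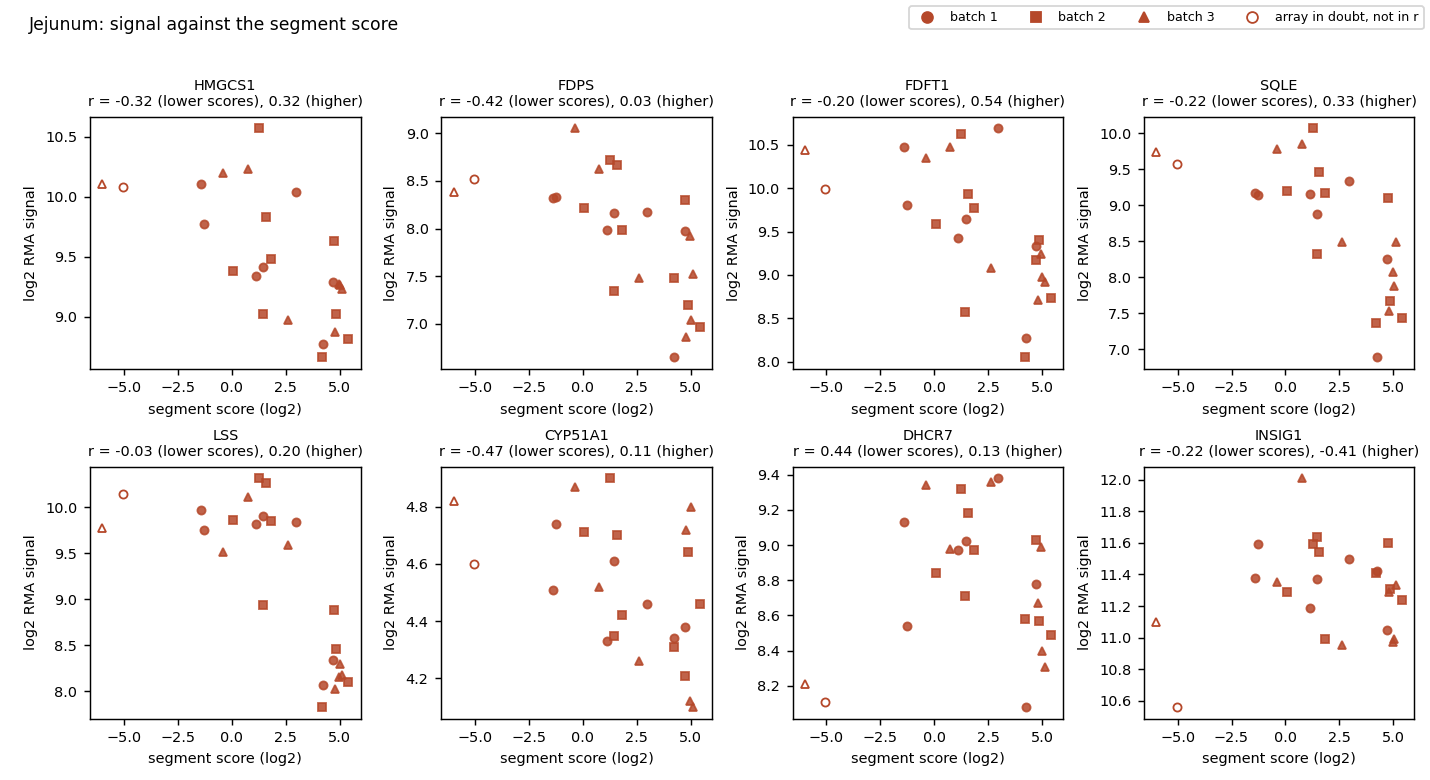
Log2 RMA signal of the 8 genes in the jejunum (vertical axes) against the segment score (horizontal axes, log2), with batches by symbol and arrays in doubt open. Scores were cut at their widest gap, between 2.96 and 4.21. Panel titles give r within each of these clusters, from -0.47 to 0.54.

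The genes whose residuals were most like the mean of the 8 members were ranked over 13001 other genes by the lower r of the 2 segments (23 jejunum and 22 ileum arrays). The highest was IDI2, an isopentenyl diphosphate isomerase, with r of 0.98 in the jejunum and 0.89 in the ileum. ERG28, a scaffold of sterol demethylation, had 0.80 and 0.85, MSMO1, the sterol methyl oxidase, 0.98 and 0.80, and AACS, acetoacetyl-CoA synthetase, 0.95 and 0.79. HSD17B7, UCK2, MVD, NSDHL, MAPRE1 and FASN completed the 10, with lower values from 0.67 to 0.79. The median lower r over all genes ranked was -0.07. When the mean of the 5 enzymes was used instead, 8 of the 10 were shared, and ACAT2 and SREBF2 entered. The pair of score clusters is part of the jejunum values behind these correlations.

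The diets were compared with the control in each segment, to ask whether LPC or lysolecithin altered these genes. Of 112 tests, 14 probe sets by 8 comparisons, 0 passed with limma, and 10 had an unadjusted p under 0.05, beside 11.4% of all probe sets over the same comparisons. Over all probe sets the share that passed in the jejunum was 0.00261% for LPC low, 0.112% for LPC high, 0.0495% for lysolecithin low and 0.829% for lysolecithin high. In the ileum it was 0.0313%, 0%, 0.875% and 0.216% in the same order. The 4 comparisons of a segment share the same 5 control birds. At these shares no calls among 14 probe sets is near the background. The 95% intervals of the genes' representing probe sets reached up to 1.15 to either side in the jejunum and 0.75 in the ileum. Changes of somewhat more than a doubling in the jejunum could therefore not be told from 0 for the most variable enzymes.

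In the jejunum the members' values mostly differed in sign between the low and the high contents, with none past the test. On LPC low 7 of 8 genes had a positive difference from the control, with a median of 0.43, and on lysolecithin low 7 of 8, with a median of 0.22. On LPC high 2 of 8 were positive, with a median of -0.28, and on lysolecithin high 1 of 8, with a median of -0.30. The medians over all probe sets lay between -0.02 and 0. The score clusters were spread unevenly over these diets: the higher cluster held 0 of 4 LPC low birds and 4 of 5 lysolecithin high birds not in doubt, and 2 of 4 controls. It held 2 of 5 birds on LPC high and 2 of 5 on lysolecithin low. With the score as a covariate the differences on lysolecithin high were 0.43 for SQLE, 0.09 for LSS and 0.11 for HMGCS1, where without it they were -0.39, -0.68 and -0.27. The medians of the 8 genes with this covariate were 0.15 on LPC low, 0.41 on lysolecithin low, 0.09 on LPC high and 0.16 on lysolecithin high, so the negative sign at the high contents was lost in that fit. The fit kept the jejunum arrays in doubt, whose scores of -5.05 and -5.99 lay well below the lowest of the others, -1.40. With the arrays in doubt left out and no covariate, the medians were 0.47 on LPC low and 0.32 on lysolecithin low. They were -0.12 on LPC high and -0.18 on lysolecithin high, still negative. The part of the score in the diet differences was not tested.

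The group values of the RNA integrity index and of markers of other cell types also varied over these diets. No test of the index between diets is given. The 5' minus 3' index in the jejunum was -0.97 ± 0.14 on control, -0.72 ± 0.27 on LPC low, -0.46 ± 0.10 on LPC high, -0.66 ± 0.16 on lysolecithin low and -0.64 ± 0.29 on lysolecithin high (SD, n = 5). With the index as a covariate the members' medians were 0.07 on LPC low, -0.24 on lysolecithin low, -0.94 on LPC high and -0.60 on lysolecithin high, so the positive sign on lysolecithin low was lost. The 5 fibroblast markers had median differences from the control of -0.43 on LPC low and -0.74 on lysolecithin low, and of 1.00 on LPC high and 1.53 on lysolecithin high. For the 5 smooth muscle markers they were 0.10 and -0.25 at the low contents and 0.71 and 1.26 at the high ones. No marker of these 2 classes passed on any of these diets. The part of these markers and of the index in the members' values was not tested. In the ileum the medians of the 8 genes lay between -0.04 and 0.11.

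The smallest adjusted p of the diet tests was that of CYP51A1 on lysolecithin high in the jejunum. Its 5 values were 4.38, 4.46, 4.42, 4.12 and 4.10, against 4.74, 4.60, 4.64, 4.71 and 4.80 in the controls. All 5 supplemented birds lay below all 5 controls, and this was the only 1 of the 14 probe sets without overlap there. The share of all probe sets without overlap was not counted, so this separation is not shown to be particular to CYP51A1. In that comparison 17.8% of all probe sets had an unadjusted limma p under 0.05. The CYP51A1 difference of -0.42 ± 0.13 did not pass (limma adjusted p = 0.115), and it was -0.29, -0.24 and -0.69 in the 3 batches. In a joint fit of the segments that took birds as a random replicate block, the same difference had a limma adjusted p of 0.0426. In the ileum CYP51A1 was at 4.64 ± 0.20 on that diet and 4.71 ± 0.10 in the controls. MUC2 of the goblet cells fell on the same diet, by 1.96 in the jejunum (limma adjusted p = 0.0495) and by 1.74 in the ileum (limma adjusted p = 0.03), and its part in the value of CYP51A1 was not tested.

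Probe set 1 of INSIG1 had its highest mean in each segment on lysolecithin low. In the jejunum the 5 birds had 11.37, 11.42, 11.60, 11.59 and 12.01, and the controls 11.59, 10.56, 11.31, 11.29 and 10.99. The groups overlapped through 1 control bird, and the lowest control was an array in doubt. The difference was 0.45 ± 0.16 (limma adjusted p = 0.362), with 0.83 ± 0.23 at probe set 2 (limma adjusted p = 0.204) and 0.60 ± 0.25 at probe set 3. In the ileum the 5 birds had 11.06, 11.65, 11.33, 11.23 and 11.34, and the controls 11.06, 10.69, 10.74, 11.06 and 10.95. The groups met at 11.06, and the difference was 0.42 ± 0.15 (limma adjusted p = 0.191). At probe set 2 the ileum means were 9.30 on lysolecithin low, 9.31 on lysolecithin high and 8.92 in the controls. On LPC high in the jejunum probe set 2 ran from 9.34 to 10.02, without overlap with the controls at 8.56 to 9.30. Probe sets 1 and 3 overlapped there. The share of all probe sets without overlap on LPC high was not counted, and 10.9% had an unadjusted limma p under 0.05. None of these differences passed.

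An F-test over all 4 diets called 0 of the 14 probe sets in each segment, where 0.13% of all probe sets passed in the jejunum and 0.138% in the ileum. At an unadjusted p under 0.05 there were 3 in the jejunum, beside 13.8% of all probe sets, and 0 in the ileum, beside 14.6%. The smallest adjusted p was 0.238, for probe set 2 of INSIG1 in the jejunum. Of the 10 other sterol enzymes, 0 passed in either direction on any diet.

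**Figure D5:**
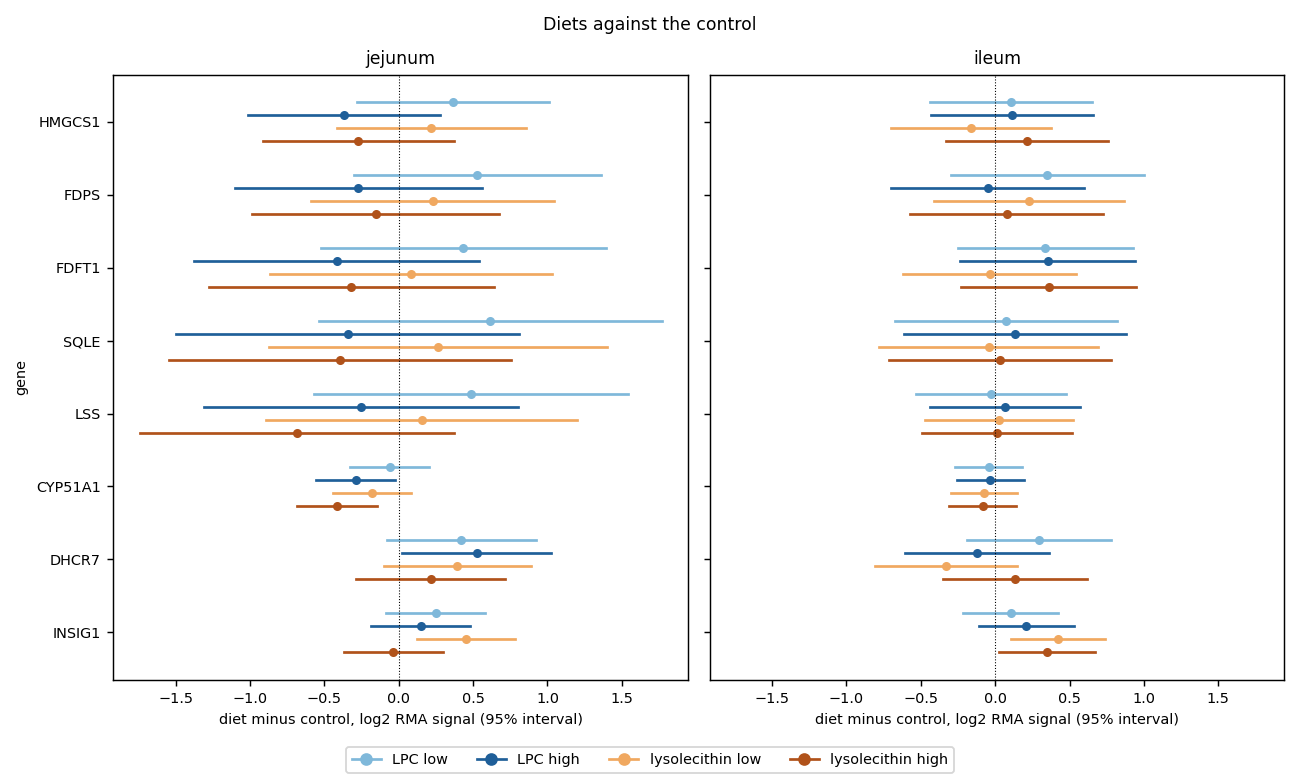
Difference of each supplemented diet from the control in log2 RMA signal (horizontal axis, with its 95% interval) for the 8 genes (vertical axis), in the jejunum and the ileum. No difference passed the adjusted threshold. Intervals are widest for SQLE and LSS in the jejunum and narrowest for CYP51A1.

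Lysolecithin and purified LPC were compared at matched LPC content, 4 pairs over both segments. Of 56 tests 0 passed with limma and 1 had an unadjusted p under 0.05, beside 6.84% of all probe sets over these pairs. In the jejunum 0% of all probe sets passed at either content, and in the ileum 0.0365% passed at the low and 0% at the high content. The smallest adjusted p was that of DHCR7 in the ileum at the low content. The lysolecithin birds had 7.37, 8.62, 7.95, 7.88 and 7.54, and the LPC birds 9.17, 8.45, 8.11, 8.11 and 8.64. The groups overlapped through 1 lysolecithin bird, and the difference was -0.62 with a 95% interval from -1.11 to -0.14 (limma adjusted p = 0.259). The LPC value of 9.17 and 1 of the values of 8.11 are from arrays in doubt, and without the arrays in doubt the difference was -0.50 (limma adjusted p = 0.3). Over the 8 genes in the jejunum the products differed by -0.35 to 0.20 at the low and by -0.43 to 0.12 at the high content, with intervals of up to 1.15 to either side, which leave room for sizeable differences.

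The high and low contents of each product were compared as well, again in 4 pairs. Of 56 tests 0 passed with limma and 3 had an unadjusted p under 0.05, beside 9.9% of all probe sets. The share of all probe sets that passed was 0% for LPC in each segment, 0.00261% for lysolecithin in the jejunum and 0.00521% in the ileum. INSIG1 in the jejunum was lower on lysolecithin high, with 11.05, 11.24, 10.99, 10.97 and 11.33, than any of the 5 birds on lysolecithin low listed above. The INSIG1 difference was -0.49 ± 0.16 (limma adjusted p = 0.231). Probe sets 2 (8.73 to 9.65 against 8.95 to 10.54) and 3 (7.45 to 7.89 against 7.54 to 8.61) overlapped. The share of all probe sets without overlap was not counted, so the separation at probe set 1 is not shown to be particular to INSIG1. In that comparison 13.5% of all probe sets had an unadjusted limma p under 0.05. HMGCS1 in the jejunum differed by -0.73 ± 0.31 between LPC high and LPC low (limma adjusted p = 0.825), and SQLE by -0.96, the largest difference among the 8 genes in these comparisons, which turned to 0.14 with the segment score as a covariate. No difference between contents passed the test.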

How the data were processed

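The authors deposited log2 RMA signals per probe set; RMA and limma are named in the submitters' processing notes, and versions and a batch correction are not given in the sources used here. RMA equalises the arrays, so differences are relative to the bulk of probes. Values ran from 1.84 to 13.99 and were used as deposited; 153 control probe sets of 38535 were left out. Array number limits precision. limma 3.58.1 in R 4.3.3 was fitted over 38382 probe sets, per segment with diet and batch (25 arrays), and between segments with the bird, named in the titles, as a block. P-values were adjusted by Benjamini-Hochberg with a threshold of 0.05; "passed" means that. Birds are separate animals, but pens may be shared. Members and lists were chosen with earlier results of these data known. Named were all members, SREBF1, SREBF2, SCAP, INSIG2, up to 4 called genes per list and the 10 most alike genes. MUC2, VIL1, CDX2, APOA4 and APOA1 come from the marker lists. On simulated data the jejunum comparison of lysolecithin high with control recovered 82 of 100 shifts of 1, and the segment comparison 99 of 100. The shifts were set at randomly drawn probe sets, with independent noise and no batch effect. Recovery for the members themselves was not measured. Correlations used 100000 permutations. The score clusters, the relations within them, the spread ratios and the list counts without the birds in doubt were added after seeing the data. A RefSeq gene table, matched for 26853 probe sets, served to check symbols.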

Additional observations from a re-analysis of the deposited data

Results flagged for a closer look

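In 80 sets of 5 birds (8 genes in 10 groups), 7 held a bird far from the other 4. Chance marks about 1 in 20 such sets, so about 4 would be marked without any cause. FDPS in ileum lysolecithin low had a highest value of 9.02, where the next was 8.35. FDPS in jejunum lysolecithin low had a lowest value of 6.65, with the next at 8.16, and DHCR7 had its lowest value of 8.08 in the same jejunum sample, with the next at 8.98. FDFT1 in jejunum LPC low had a lowest value of 8.57, with the next at 9.93. LSS in jejunum lysolecithin high had a highest value of 9.85, with the next at 8.34. The lowest values of SQLE (7.74) and CYP51A1 (4.28) in ileum lysolecithin high came from 1 array, which is among the arrays in doubt.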

How the results depend on the processing

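Over 224 values of the 14 probe sets in the diet, product and content comparisons and 4672 refits, 123 values changed sign at least once (397 refits). None of those was called, and no value over 1.73 standard errors changed sign, so the signs of small diet differences carry little. The fits with the segment score as a covariate kept the arrays in doubt. In them the jejunum differences on lysolecithin high turned to 0.43 for SQLE, 0.093 for LSS and 0.11 for HMGCS1. SQLE on LPC high against LPC low turned to 0.14. The count of members called rose from 0 to 1 in 2 settings: in jejunum lysolecithin high against control with the bird as a random replicate block (CYP51A1, limma adjusted p = 0.0426), and in ileum LPC low against control without the arrays in doubt (probe set 3 of LSS at 0.83, limma adjusted p = 0.0378). Leaving out each bird of those comparisons in turn kept every such count at 0. For the segments the paired count of 10 probe sets became 9 with no replicate block and lay between 9 and 10 on leaving out each bird in turn; no sign changed in those refits. INSIG1 lost its call on leaving out any of 18 birds (limma adjusted p = 0.0503 to 0.0873), and also with no replicate block and with the trend and robust prior. FDPS passed without LPC low replicate 1, which is among the birds in doubt. DHCR7 read by its dim second probe set was at -0.018. The cause of these changes was not tested. Dim signals limit CYP51A1 and that probe set.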
